A study of Saccharomyces cerevisiae with 9 samples.

Results

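5.8S and the second internal transcribed spacer, ITS 2, are adjoining stretches of the 35S ribosomal RNA gene of budding yeast, Saccharomyces cerevisiae, here followed nucleotide by nucleotide. Their members were taken by the region names in the deposited tables, which give 158 positions to 5.8S (2862 to 3019) and 232 to ITS 2 (3020 to 3251), together 390 of 6858 positions of the gene. Positions count from 1 at the first nucleotide of the gene. In build R64 the gene is RDN37-2 on the minus strand of chromosome XII. 5.8S lies at chrXII:464551-464708, the span RefSeq gives to RDN58-2, and ITS 2 at chrXII:464319-464550. The tables name no feature inside either region. RefSeq lists another copy, RDN58-1 at chrXII:455414-455571, and reads from the copies cannot be told apart here. The data are native elongating transcript sequencing (NET-seq) libraries, in which RNA polymerase I (Pol I) is immunoprecipitated and the 3′ end of each RNA in the precipitate is mapped to 1 nucleotide. The study asked how Rpa49 affects Pol I occupancy and used 3 libraries each of WT, rpa34Δ and rpa49Δ yeast. All were grown at 30 °C without treatment, and the labels give no other allele. RNA came from cells that were filtered, flash frozen and broken in the cold, and a linker with a molecular identifier marked each RNA 3′ end. The tables hold only the rRNA gene, so transcripts of the deleted genes were not analysed here.

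5.8S becomes a small RNA of the large ribosomal subunit, where it pairs with 25S, and ITS 2 is the spacer between them, which is removed and degraded. In yeast the endonuclease Las1 cuts ITS 2 and leaves a 7S precursor, which the exosome trims to the 6S form with a few spacer nucleotides left, and other exonucleases finish the 5.8S 3′ end. Rpa34 and Rpa49 form a heterodimer on Pol I that resembles TFIIF of Pol II. NET-seq reads at the end of a processed RNA that came down with the precipitate cannot be told apart from reads of the nascent RNA end in Pol I, and this was not tested.

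The sequences are shown because the changes turned on single nucleotides. They run 5′ to 3′ as the deposited base column gives the RNA-like strand. Around the border of 5.8S and ITS 2 (positions 3000 to 3039, chrXII:464531-464570, minus strand), capitals mark the 3 nucleotides without a read in any library.
5.8S/ITS 2 border: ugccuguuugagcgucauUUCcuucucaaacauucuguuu
For the whole of 5.8S and of ITS 2, capitals mark first the 5 positions with the highest mean in WT, then those that passed the test as higher than in WT in rpa34Δ, and then the same for rpa49Δ.
5.8S, highest in WT: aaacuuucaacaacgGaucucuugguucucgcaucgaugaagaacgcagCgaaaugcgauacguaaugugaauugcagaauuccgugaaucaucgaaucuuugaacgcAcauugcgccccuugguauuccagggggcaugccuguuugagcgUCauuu
5.8S, higher in rpa34Δ: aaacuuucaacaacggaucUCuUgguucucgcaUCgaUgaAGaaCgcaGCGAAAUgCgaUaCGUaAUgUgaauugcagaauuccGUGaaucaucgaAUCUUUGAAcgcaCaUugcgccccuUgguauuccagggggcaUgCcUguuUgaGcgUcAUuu
5.8S, higher in rpa49Δ: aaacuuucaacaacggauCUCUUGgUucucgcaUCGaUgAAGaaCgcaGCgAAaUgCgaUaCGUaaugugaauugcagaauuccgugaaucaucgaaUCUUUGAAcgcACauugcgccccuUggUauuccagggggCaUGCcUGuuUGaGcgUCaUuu
ITS 2, highest in WT: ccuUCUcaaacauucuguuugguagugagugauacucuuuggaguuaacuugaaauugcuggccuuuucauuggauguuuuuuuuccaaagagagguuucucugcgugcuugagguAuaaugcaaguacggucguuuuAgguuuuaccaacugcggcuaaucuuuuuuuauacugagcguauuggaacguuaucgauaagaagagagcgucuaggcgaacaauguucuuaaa
ITS 2, higher in rpa34Δ: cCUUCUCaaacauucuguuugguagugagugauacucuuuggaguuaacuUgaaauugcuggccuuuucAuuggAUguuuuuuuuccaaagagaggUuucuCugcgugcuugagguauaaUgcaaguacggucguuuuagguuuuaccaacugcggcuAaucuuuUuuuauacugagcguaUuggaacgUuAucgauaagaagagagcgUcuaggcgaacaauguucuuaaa
ITS 2, higher in rpa49Δ: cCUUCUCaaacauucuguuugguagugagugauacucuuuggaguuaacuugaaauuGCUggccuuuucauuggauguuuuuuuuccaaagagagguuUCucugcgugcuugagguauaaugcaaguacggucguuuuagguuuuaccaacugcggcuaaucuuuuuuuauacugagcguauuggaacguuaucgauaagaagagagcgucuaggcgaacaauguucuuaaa

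Levels are given as RPM, reads per 1000000 that a library had in the gene, so they are shares of a library and not amounts of RNA. Libraries held 1242139 to 5353045 reads, of which 40452 to 148221 fell in 5.8S and 6711 to 70588 in ITS 2, with the fewest in rpa49Δ. The median ITS 2 position rested on 138 reads per library in WT, on 59.7 in rpa34Δ and on 11 in rpa49Δ. The labels do not say that libraries of 1 group were separate cultures, and p-values then cover the spread among these libraries alone, which may be technical. Means are given ± SD with n = 3. An exact permutation test of 3 libraries against 3 can give no p below 0.1, as only 10 splits exist.

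In WT the signal of 5.8S was uneven, and that of ITS 2 was lower per nucleotide and also uneven. 5.8S held 177 RPM per nucleotide and ITS 2 52.8, against 41.7 in ITS 1, the spacer before 5.8S. The highest 5.8S position was 2970, an A at 826, 1346 and 1450 RPM in the 3 libraries. It was followed by 3015 and 3014 near the 3′ end (1049 ± 136 and 1035 ± 172 RPM), 2911 (912 ± 93.1) and 2877 (617 ± 131). In ITS 2 the highest were 3025 (582 ± 77.8 RPM), 3158 (570 ± 85.7) and 3136 (516 ± 36.9), then 3024 and 3023 beside the first of these. The 9 nucleotides that open 5.8S were nearly empty, with WT means of 3.70 to 9.59 RPM, rpa34Δ means of 2.59 to 8.14 and rpa49Δ means of 0.213 to 2.58.

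**Figure D1:**
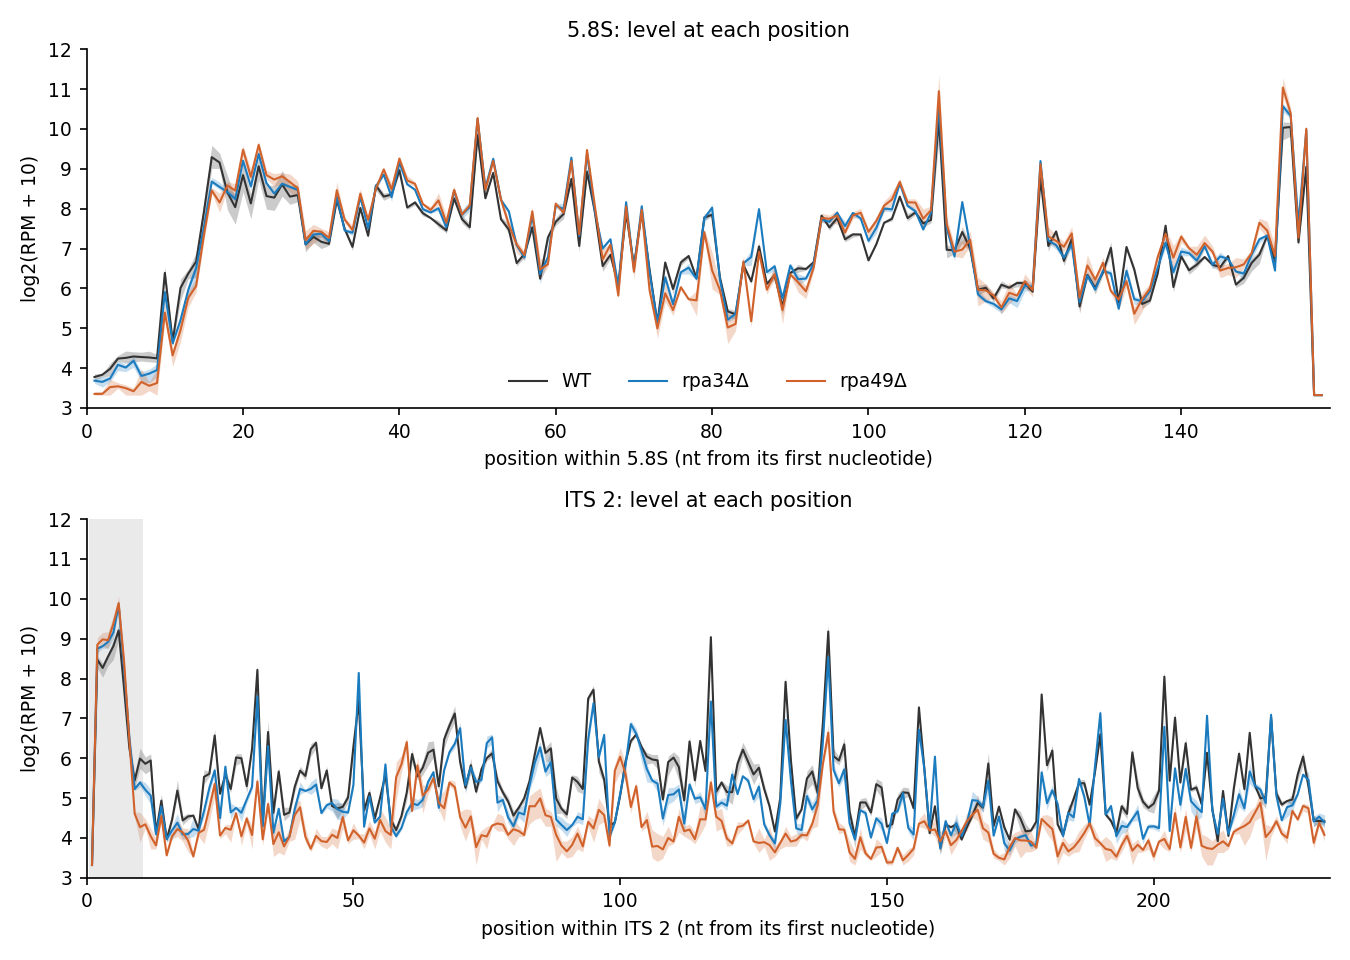
Level at each nucleotide of 5.8S (upper panel) and ITS 2 (lower panel) as log2(RPM + 10), for WT, rpa34Δ and rpa49Δ; lines are means of 3 libraries, bands span the lowest to the highest library, and the grey band marks the first 10 nt of ITS 2. The 3 groups follow each other along 5.8S, whereas in ITS 2 past the grey band rpa49Δ lies below WT at most positions.

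5.8S held a larger share of the reads of the gene in both deletions than in WT, and ITS 2 a smaller one, though a larger share of the spacer reads. The share of 5.8S was 2.81, 2.80 and 2.77% in WT, 3.34, 3.26 and 3.15% in rpa34Δ, and 3.57, 3.38 and 3.26% in rpa49Δ. No library of either deletion overlapped WT, whereas the deletions overlapped each other. The ratio to WT was 1.16 for rpa34Δ and 1.22 for rpa49Δ (two-sided exact permutation p = 0.1 each), and between the deletions p was 0.3. ITS 2 held 1.11, 1.25 and 1.32% in WT, 0.970, 1.06 and 0.947% in rpa34Δ, and 0.649, 0.553 and 0.540% in rpa49Δ. The groups did not overlap, and ITS 2 was 1.23-fold lower in rpa34Δ and 2.11-fold lower in rpa49Δ than in WT (exact permutation p = 0.1 each). Taken as a share of spacer reads alone, ITS 2 as a whole was higher, at log2 0.41 in rpa34Δ and 0.80 in rpa49Δ against WT. On that scale the median log2 change at its tested positions past the first 10 nt was 0.064 in rpa34Δ and -0.087 in rpa49Δ. Of 7 regions compared, no adjusted p fell below 0.1. Exact (Clopper-Pearson) 95% intervals were at most 0.0625 points wide for 5.8S and 0.0259 for ITS 2, and cover counting error only.

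The lower share of ITS 2 in the gene did not include its start. Its first 10 nt, positions 3020 to 3029, held 17.99, 20.2 and 20.1% of ITS 2 reads in WT, 34.6, 32.2 and 31.1% in rpa34Δ, and 60.8, 57.9 and 60.5% in rpa49Δ. The 3 groups were far apart on this measure. As a share of the whole gene these 10 nt went from 0.239% ± 0.0344 in WT to 0.324% ± 0.0257 in rpa34Δ and 0.347% ± 0.0410 in rpa49Δ. The rest of ITS 2 went the other way, from 0.987% ± 0.0711 in WT to 0.669% ± 0.0442 in rpa34Δ and 0.233% ± 0.0207 in rpa49Δ. That is 1.48-fold lower in rpa34Δ and 4.23-fold lower in rpa49Δ, beside 1.59-fold and 3.88-fold for ITS 1. The split at 10 nt follows the windows of the test, but its use for shares was chosen after the values were seen, so these shares carry no test. ITS 2 past its first 10 nt had 44.4 ± 3.20 RPM per nucleotide in WT, 30.1 ± 1.99 in rpa34Δ and 10.51 ± 0.931 in rpa49Δ. Its ratio to ITS 1 per nucleotide lay between 0.974 and 1.17 in the 9 libraries, without overlap of the groups. This ratio was 1.07 ± 0.0268 in WT, 1.15 ± 0.0217 in rpa34Δ and 0.977 ± 0.00274 in rpa49Δ. The ratio for the whole of ITS 2 to ITS 1 was 1.27 ± 0.0498 in WT, 1.63 ± 0.0609 in rpa34Δ and 2.33 ± 0.0868 in rpa49Δ.

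**Figure D2:**
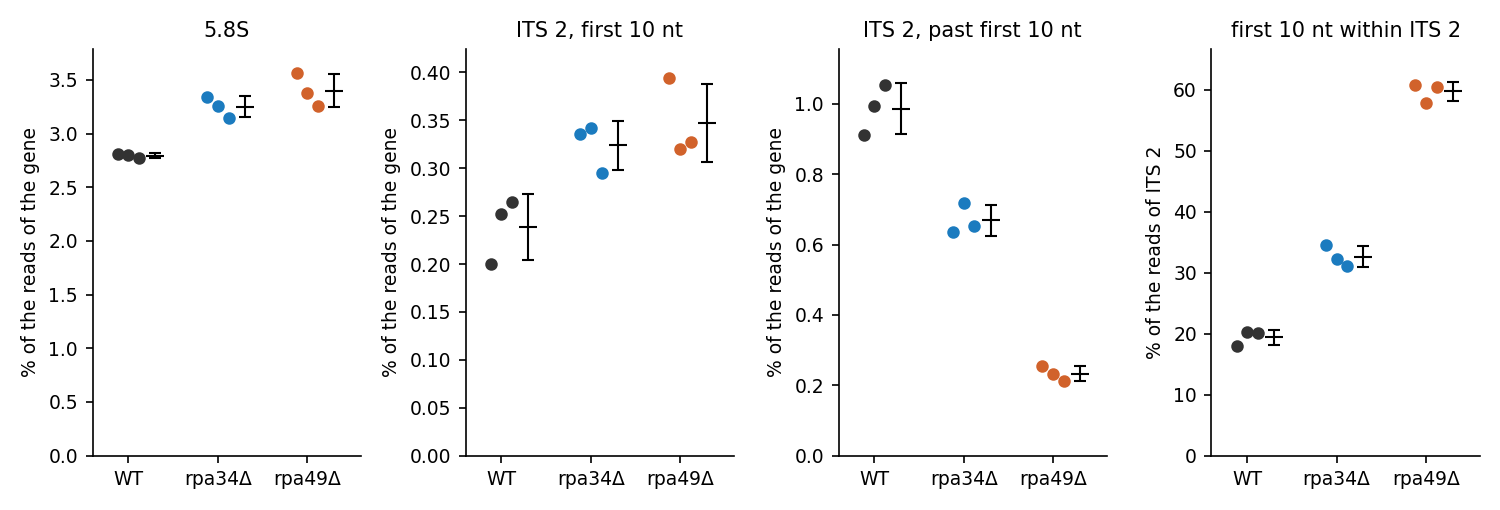
Share of the reads of the gene in 5.8S, in the first 10 nt of ITS 2 and in the rest of ITS 2, and, in the last panel, share of the reads of ITS 2 that fell in its first 10 nt; each point is a library and bars are mean ± SD of 3. The first 10 nt and 5.8S are lowest in WT, the rest of ITS 2 is highest in WT, and the first 10 nt make up 59.7% of ITS 2 in rpa49Δ against 19.4% in WT.

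At the border itself, signal stood on both sides of 3 empty nucleotides. Positions 3018 and 3019, the last of 5.8S, and 3020, the first of ITS 2, had no read in any library, which allows up to 0.560 to 2.42 RPM depending on the library (3 reads). No source used here gives the reason for these zeros. On the 5.8S side, position 3014 (U) stood at 837, 1123 and 1146 RPM in WT, 1579, 1593 and 1363 in rpa34Δ, and 2491, 1978 and 1815 in rpa49Δ. No library of one group overlapped another, and the position rose 1.46-fold in rpa34Δ and 2.02-fold in rpa49Δ (limma, Benjamini-Hochberg adjusted p = 0.00412 and 2.22e-05). Position 3017 (U), the last with reads, had 482, 532 and 548 RPM in WT, 1054, 959 and 970 in rpa34Δ, and 1067, 1002 and 985 in rpa49Δ. It rose to overlapping levels in the deletions, with log2 changes of 0.92 ± 0.09 (SE) and 0.96 ± 0.11 (limma adjusted p = 2.6e-06 and 6.86e-07). Position 3015 between them changed less, at log2 0.29 in rpa34Δ (limma adjusted p = 0.0593) and 0.35 in rpa49Δ (0.0357), the latter no longer past the threshold without WT replicate 1 (0.163), without WT replicate 2 (0.0605) or without rpa49Δ replicate 3 (0.123). In rpa34Δ it passed without WT replicate 3 (log2 0.35, limma adjusted p = 0.0381).

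On the spacer side, the stretch from 3021 to 3026 rose at each of its 6 positions in both deletions. Position 3025 (U), the highest of ITS 2, had 493, 612 and 640 RPM in WT, 932, 986 and 822 in rpa34Δ, and 1061, 876 and 883 in rpa49Δ. The WT libraries lay below all others, and the deletions overlapped each other. Its log2 change was 0.65 ± 0.11 (SE) in rpa34Δ and 0.69 ± 0.13 in rpa49Δ (limma adjusted p = 0.000421 and 0.000155). The other 5 positions had log2 changes of 0.28 to 0.55 in rpa34Δ and 0.38 to 0.72 in rpa49Δ. In rpa34Δ the smallest of these, 0.28 at 3021, lost the threshold without WT replicate 1, rpa34Δ replicate 1 or rpa34Δ replicate 2 (limma adjusted p = 0.0907, 0.125 and 0.0737), as did 0.35 at 3024 (0.0978, 0.128 and 0.068). Position 3023 lost it without rpa34Δ replicate 1 (limma adjusted p = 0.0595). Against WT in rpa49Δ, 3021 and 3023 lost it without WT replicate 1 (limma adjusted p = 0.0643 and 0.0566).

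On the whole-gene scale, the stretch that passed in both deletions ended at 3026. Position 3027 changed by log2 0.29 in rpa34Δ and 0.21 in rpa49Δ, neither past the threshold (limma adjusted p = 0.064 and 0.21). Without WT replicate 3 it passed in rpa34Δ, at log2 0.40 (limma adjusted p = 0.0145). It also passed as higher in both deletions with spacers scaled on spacer reads or ITS 2 on its reads past the first 10 nt. The change was then up to log2 0.92 in rpa34Δ and 2.07 in rpa49Δ, so the end of the stretch depends on the scaling. Position 3029 stood at 43.6, 51.1 and 66.3 RPM in WT, 29.0, 33.8 and 33.3 in rpa34Δ, and 14.9, 8.29 and 4.83 in rpa49Δ. WT thus lay above both deletions there, whereas it lay below both at 3025. Position 3029 fell by 0.59 in rpa34Δ and 1.74 in rpa49Δ on the log2 scale (limma adjusted p = 0.00307 and 1.71e-07). Scaling spacers on spacer reads left -0.0073 in rpa34Δ (limma adjusted p = 0.964). Scaling on the ITS 2 reads past the first 10 nt left -0.13 in rpa34Δ and -0.39 in rpa49Δ (0.368 and 0.0952). Between the deletions none of the positions 3021 to 3026 passed the threshold on the whole-gene scale, with differences of log2 0.04 to 0.22. Under each of these 2 other scalings all of them passed as higher in rpa49Δ. The larger of the 2 differences ran from log2 1.53 at 3023 to 1.71 at 3024. The first 10 nt of ITS 2 held 75.1% ± 2.06 as many reads as the last 10 nt of 5.8S in WT, 72.9% ± 3.64 in rpa34Δ and 67.2% ± 1.90 in rpa49Δ, a measure also chosen after the values were seen.

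**Figure D3:**
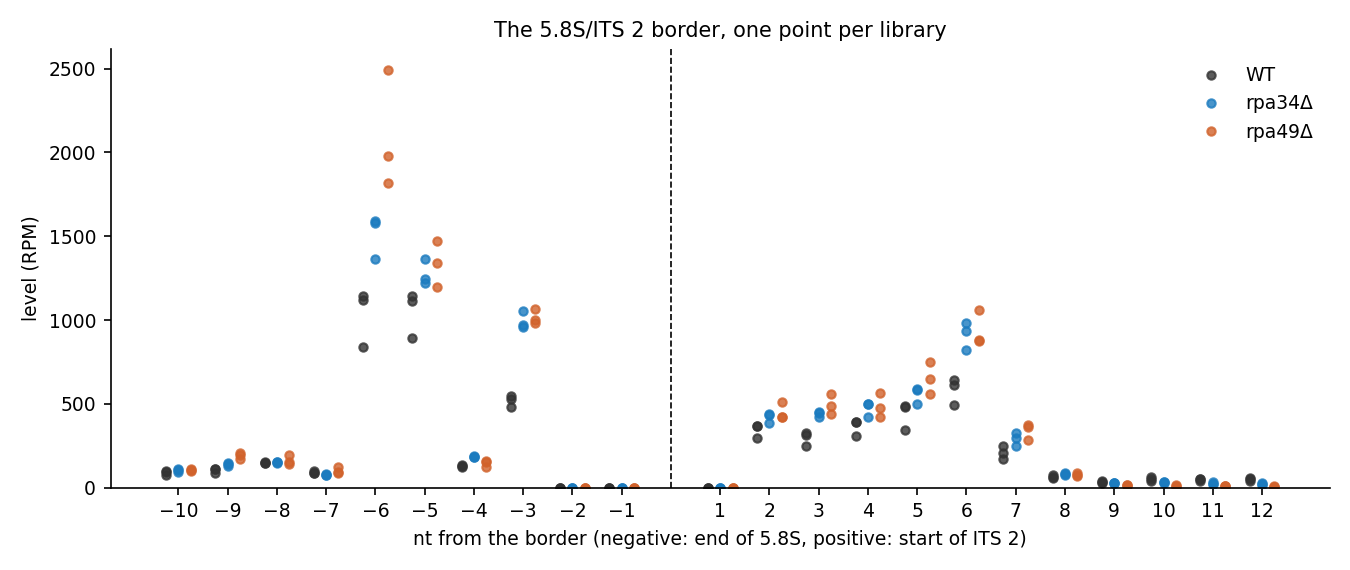
Level in RPM at the last 10 nt of 5.8S (negative numbers) and the first 12 nt of ITS 2 (positive numbers), with a point for each of the 9 libraries. WT points lie lowest 6 and 3 nt before the border and at 2 to 7 nt after it, no library has a read at the 3 central positions, and from 9 nt after it rpa49Δ lies lowest.

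Single positions were tested where the mean over the libraries compared was at least 10 RPM, on log2(RPM + 10) with limma, at an adjusted p below 0.05 over all tested positions of the gene. In 5.8S, 147 of 158 positions were tested in each comparison. In ITS 2 fewer qualified as levels fell, 205 of 232 in the comparison of rpa34Δ with WT, 185 in that of rpa49Δ with WT and 152 between the deletions. Of the ITS 2 positions tested, 26 reached 10 RPM in only 1 of the 2 groups for rpa34Δ against WT, and 73 between the deletions. For rpa49Δ against WT, 105 reached 10 RPM in only WT or only rpa49Δ. Among all 232 members, 209 reached it in WT and 82 in rpa49Δ, so counts are also given for all positions with a read. Counts depend on the scaling too, so 2 other scalings are set beside them. One scales spacers on spacer reads and mature regions on mature rRNA reads. The other, chosen after seeing the data, scales within the region, 5.8S on its own reads and ITS 2 on its reads past the first 10 nt.

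In rpa34Δ, 47 of 147 tested 5.8S positions rose and 18 fell against WT. Over all tested positions of the gene 43.2% passed the threshold, 19.8% upward and 23.4% downward. With every position that had a read, 47 of 156 rose and 21 fell (18.6% and 24.0% over the gene), and the median log2 change was 0.11 against 0.00 over the gene. Scaled on mature rRNA reads, 39 of 147 rose and 23 fell (18.7% and 21.1% over the gene). Scaled within the region, the split turned over to 18 higher and 39 lower of 147 (19.7% and 22.5% over the gene). Position 2947 (U) rose most, from 116, 120 and 132 RPM in WT to 250, 247 and 234 in rpa34Δ (log2 0.94 ± 0.08 SE, limma adjusted p = 9.55e-07). It stood at 99.5, 124 and 109 RPM in rpa49Δ, a range that overlapped WT and lay below rpa34Δ. Position 2973 (U) behaved alike, with 161 ± 27.1 RPM in WT, 277 ± 3.99 in rpa34Δ and 116 ± 20.3 in rpa49Δ. The falls included the high WT position 2877 (G), which had 761, 584 and 506 RPM in WT, 431, 383 and 386 in rpa34Δ, and 323, 361 and 341 in rpa49Δ. Neither deletion overlapped WT there, and the fall was 0.59 in rpa34Δ and 0.81 in rpa49Δ on the log2 scale (limma adjusted p = 0.00172 and 3e-05). Positions 2873, 2878, 2978, 2992 and 2995 made up the 5 largest falls, by 0.60 to 0.79 on the log2 scale.

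In rpa49Δ, 49 of 147 tested 5.8S positions rose and 28 fell against WT, where 57.6% of all tested positions of the gene passed, 27.1% upward and 30.5% downward. With every position that had a read, 50 of 156 rose and 35 fell (24.4% and 33.3% over the gene), and the median log2 change was 0.15 against -0.03 over the gene. Scaled on mature rRNA reads, 36 of 147 rose and 31 fell (21.0% and 27.2% over the gene). Scaled within the region, 16 were higher and 43 lower (27.1% and 28.8% over the gene), again a reversed split. After 3014 and 3017, the largest rises were at 3011 (log2 0.80), 3000 (0.72) and 2961 (0.71). The highest WT position, 2970, had 2632, 1599 and 1666 RPM in rpa49Δ and 1633, 1608 and 1348 in rpa34Δ, and the spread within groups was wide. It rose by log2 0.70 ± 0.20 (SE) in rpa49Δ (limma adjusted p = 0.00672). In rpa34Δ the change of 0.38 did not pass (0.101), though it did without WT replicate 3 (0.0272). The largest fall was at 2941 (A), with 213, 219 and 228 RPM in WT, 268, 253 and 230 in rpa34Δ and 69.2, 110 and 53.1 in rpa49Δ. The rpa49Δ libraries lay apart from the other 6, at log2 -1.45 ± 0.17 (SE) against WT (limma adjusted p = 5.75e-07).

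In windows of 10 nt, 5.8S rose in more windows than it fell in both deletions, and its first window fell in both. Of 16 windows, 9 rose and 2 fell in rpa34Δ (16.8% and 26.7% over the gene) and 10 rose and 2 fell in rpa49Δ (26.7% and 38.6%). The rpa34Δ count was 6 in all without rpa34Δ replicate 1 and 7 without rpa34Δ replicate 2. Scaled on mature rRNA reads, 5 rose and 2 fell in rpa34Δ (17.0% and 20.8% over the gene) and 6 rose and 4 fell in rpa49Δ (21.6% and 37.7%). The last window, 3012 to 3019, rose most in both, from 2980 ± 354 RPM in WT to 4195 ± 224 in rpa34Δ and 4861 ± 447 in rpa49Δ (log2 0.50 and 0.71, limma adjusted p = 0.00188 and 0.000152). With the median position of the window in place of its sum, the rpa49Δ change was 0.12 and did not pass (limma adjusted p = 0.304). The first window, 2862 to 2871, fell from 143 ± 4.20 RPM to 94.0 ± 7.87 and 44.2 ± 12.9 (log2 -0.56 and -1.52), mostly at 2871. The other fall in rpa34Δ was near the 3′ end, at 2992 to 3001 (log2 -0.24, limma adjusted p = 0.0184), and was lost without rpa34Δ replicate 1 (0.0846) or rpa34Δ replicate 2 (0.0517). The window 2932 to 2941 had 1167 ± 35.9 RPM in WT, 1142 ± 16.1 in rpa34Δ and 775 ± 39.2 in rpa49Δ, and fell in rpa49Δ (log2 -0.58). The window after it, 2942 to 2951, had 642 ± 0.921, 844 ± 14.0 and 558 ± 39.2 RPM and rose in rpa34Δ (log2 0.39).

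In ITS 2 of rpa34Δ, 19 of 205 tested positions rose and 123 fell against WT, beside the 19.8% and 23.4% of the gene. With every position that had a read, 20 of 231 rose and 134 fell (18.6% and 24.0% over the gene), with a median log2 change of -0.38. Of 24 windows, 2 rose and 16 fell (16.8% and 26.7% over the gene). The rises were the first window and 3070 to 3079, which had 336 ± 23.3 RPM in WT and 417 ± 18.2 in rpa34Δ (log2 0.30), fell by 0.59 when its median position stood for it, and lost the threshold without WT replicate 2 or any rpa34Δ library (limma adjusted p = 0.0566 to 0.0901). Scaling spacers on spacer reads alone turned the split of positions to 66 higher and 40 lower of 206 (18.7% and 21.1% over the gene). That of windows turned to 10 higher and 2 lower (17.0% and 20.8% over the gene). The median log2 change of tested positions then moved from -0.43 to 0.08. Scaled within the region, 50 were higher and 49 lower of 205 (19.7% and 22.5% over the gene). Position 3136 (A) had 474, 529 and 544 RPM in WT, 148, 176 and 161 in rpa34Δ, and 33.0, 26.8 and 36.2 in rpa49Δ. The 3 groups were far apart, and the fall was 3.19-fold in rpa34Δ and 16.1-fold in rpa49Δ (limma adjusted p = 9.18e-09 and 9.39e-15). The largest fall in rpa34Δ was at 3198 (G), with 173, 189 and 190 RPM in WT and 44.1, 41.7 and 34.4 in rpa34Δ, a log2 change of -1.96 ± 0.10 (SE). At 3158 (A), the highest WT position past the start, WT libraries had 483, 573 and 654 RPM, rpa34Δ 360, 397 and 327, and rpa49Δ 87.9, 106 and 75.7. The fall was 0.64 on the log2 scale in rpa34Δ (limma adjusted p = 0.000422), which scaling on spacer reads turned to 0.064, and 2.54 in rpa49Δ.

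Among these falls, 13 tested positions past the first 10 nt rose in rpa34Δ, of which 8 were U, 4 A, 1 C and 0 G. The 196 positions tested there were 73 U, 48 A, 27 C and 48 G, and no test of the bases of these rises was made. The largest rise was at 3178 (A), from 17.99, 18.3 and 17.0 RPM in WT to 53.1, 54.3 and 60.0 in rpa34Δ, with 6.46, 12.8 and 6.44 in rpa49Δ. That is a rise of 3.14-fold in rpa34Δ (limma adjusted p = 6.81e-07) at a position that fell by 0.60 on the log2 scale in rpa49Δ. Position 3116 (U) rose from 35.1, 30.7 and 36.6 RPM to 79.1, 90.6 and 88.2 (log2 1.12 ± 0.11 SE) and stood at 12.9, 17.2 and 11.3 in rpa49Δ. Position 3229 (U) rose from 60.4 ± 5.21 to 124 ± 7.34 RPM and 3089 (A) from 49.9 ± 5.13 to 97.9 ± 9.91. The fifth, 3070 (U), had 176, 145 and 169 RPM in WT, 256, 280 and 281 in rpa34Δ, and 5.82, 7.01 and 7.25 in rpa49Δ. It was among the highest positions of ITS 2 in rpa34Δ and nearly empty in rpa49Δ, with a log2 change of 0.71 against WT and of -4.08 between the deletions.

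In the 5 nt before each of these 5 rises, the highest WT position was one that fell in rpa34Δ, a relation looked at after the values were seen. It did not hold for all 13 rises: the highest WT position before them fell for 7, rose for 3 and did not pass for 3. Position 3178 lies 3 nt after 3175, which went from 145 to 95.2 RPM on average. Position 3116 lies 2 nt after 3114 (201 to 157 RPM), 3229 lies 4 nt after 3225 (73.1 to 43.1), and 3089 and 3070 each follow directly on a falling position. Since 122 of 196 tested positions past the first 10 nt fell, a falling neighbour was common there.

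**Figure D4:**
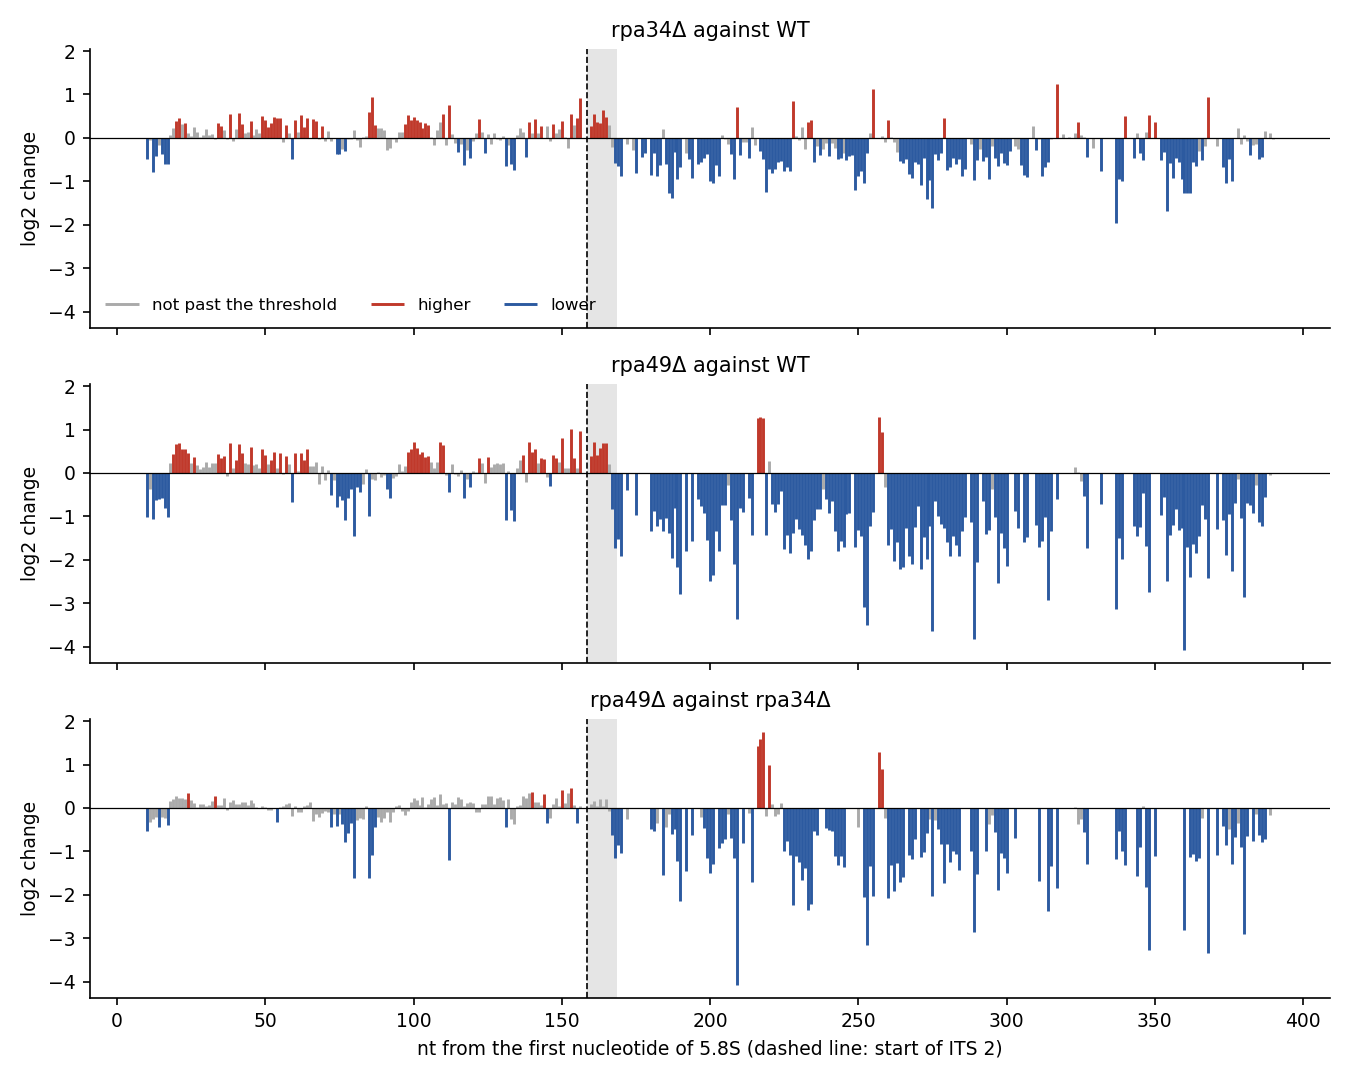
Log2 change at each tested position of 5.8S and ITS 2 for the 3 comparisons, on the log2(RPM + 10) scale, against nt from the first nucleotide of 5.8S; red and blue bars passed the threshold as higher or lower, grey bars did not, the dashed line is the start of ITS 2 and the shaded band its first 10 nt. Past the band, the coloured bars against WT point down except at 13 positions in rpa34Δ and 5 in rpa49Δ.

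In ITS 2 of rpa49Δ, 162 of 185 tested positions fell and 11 rose against WT, beside the 30.5% and 27.1% of the gene. With every position that had a read, 198 of 231 fell and 11 rose (33.3% and 24.4% over the gene), with a median log2 change of -1.04. Scaled on spacer reads alone, the split was 51 higher and 56 lower of 191 (21.0% and 27.2% over the gene). Within the region 68 were higher and 51 lower of 196 (27.1% and 28.8% over the gene). Of 24 windows, 22 fell and 1 rose (38.6% and 26.7% over the gene), the one that rose being the first. Scaled on spacer reads, 5 windows rose and 11 fell (21.6% and 37.7% over the gene). The largest fall of a single position was at 3221 (A), from 226, 258 and 280 RPM in WT to 91.5, 116 and 93.8 in rpa34Δ and 3.23, 8.29 and 5.64 in rpa49Δ. The log2 change in rpa49Δ was -4.08 ± 0.15 (SE) (limma adjusted p = 3.96e-14), and the rpa49Δ level rested on 5 to 13 reads a library. The next largest falls were at 3150 (G, log2 -3.82), 3136 (-3.65), 3114 (G, -3.50) and 3070 (-3.37).

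Apart from the start, 5 positions of ITS 2 rose in rpa49Δ, in 2 short runs. These were 3077, 3078 and 3079, and 3118 and 3119. Position 3077 was not tested in rpa34Δ against WT, where its mean lay under 10 RPM. Its call in rpa49Δ thus rests on a filter that its rpa49Δ level helped it pass. Position 3078 (C) had 13.7, 11.9 and 14.6 RPM in WT, 10.2, 8.39 and 8.61 in rpa34Δ, and 57.5, 40.2 and 45.1 in rpa49Δ. The rpa49Δ libraries lay above the other 6, 3.55-fold over WT (limma adjusted p = 6.4e-07), on 56 to 89 reads a library. Position 3079 (U) had 74.7 ± 9.94 RPM in rpa49Δ against 25.4 ± 4.11 in WT and 15.1 ± 1.53 in rpa34Δ. Position 3118 (U) had 10.8, 11.7 and 10.46 RPM in WT, 10.55, 12.6 and 10.1 in rpa34Δ, and 45.9, 47.8 and 31.4 in rpa49Δ, a rise of 3.79-fold over WT (limma adjusted p = 1.03e-06). Thus 3118 rose in rpa49Δ and 3116, 2 nt before it, rose in rpa34Δ and fell in rpa49Δ.

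**Figure D5:**
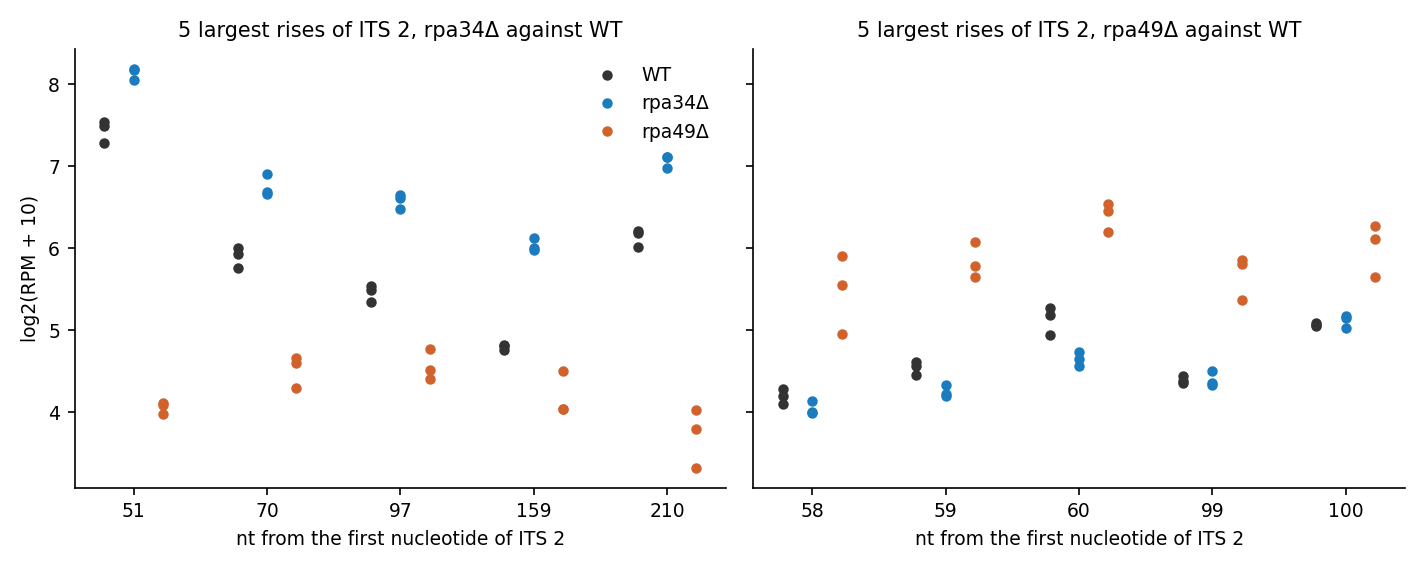
Level as log2(RPM + 10) in each of the 9 libraries at the 5 ITS 2 positions with the largest rise in rpa34Δ (left) and in rpa49Δ (right) against WT; the horizontal axis gives nt from the first nucleotide of ITS 2. On the left rpa34Δ lies highest and rpa49Δ lowest at every position, and on the right rpa49Δ lies highest.

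The deletions were also compared directly. In 5.8S, 6 of 147 tested positions were higher and 18 lower in rpa49Δ than in rpa34Δ, where 30.4% of all tested positions of the gene passed, 10.9% higher and 19.5% lower. The count depended on the library left out, from 9 without rpa34Δ replicate 1, 13 without rpa34Δ replicate 2 and 15 without rpa34Δ replicate 3 to 30 in all. Scaled on mature rRNA reads, 4 were higher and 20 lower (9.60% and 15.9% over the gene). Within the region, 4 were higher and 21 lower (11.4% and 18.2% over the gene). The largest differences were at 2941 (log2 -1.62), 2946 (-1.61), 2973 (-1.20) and 2947 (-1.07), each of them lower in rpa49Δ. Position 3014 was higher in rpa49Δ by log2 0.46 (limma adjusted p = 0.0209), which did not pass without rpa34Δ replicate 1 (0.0637) or rpa34Δ replicate 3 (0.0968). In ITS 2, 112 of 152 tested positions were lower and 6 higher in rpa49Δ. With every position that had a read, 160 of 231 were lower and 6 higher (22.4% and 9.73% over the gene), with a median log2 change of -0.62. Scaled on spacer reads the split was 29 higher and 49 lower of 154 (9.60% and 15.9% over the gene), and scaled within the region it turned to 51 higher and 35 lower (11.4% and 18.2% over the gene). All 6 higher positions lay at 3077 to 3081 or 3118 to 3119, with 3079 the most different (log2 1.75 ± 0.14 SE, limma adjusted p = 1.31e-07). Here too the rpa49Δ levels of 3077 and 3078 helped them pass the filter. Position 3070 differed most downward, and 3229, 3209, 3114 and 3241 followed at log2 -3.35 to -2.91. In windows, 22 of 24 were lower in ITS 2 and 3 of 16 in 5.8S, and none was higher in either, beside 31.8% lower and 11.9% higher over the gene. Scaled on spacer reads, 5 windows of ITS 2 were higher and 14 lower (10.7% and 27.3% over the gene). Without rpa49Δ replicate 3, 5 windows of 5.8S passed, 2 of them higher and 3 lower.

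More of the RNA 3′ ends lay at U in both regions in the deletions than in WT, and in ITS 2 more lay at C as well. In 5.8S, U held 28.3% ± 0.715 of reads in WT, 32.4% ± 0.129 in rpa34Δ and 33.2% ± 0.930 in rpa49Δ, while U is 27.8% of its positions. G held 19.5% ± 0.989, 16.8% ± 0.195 and 17.0% ± 0.101. Neither deletion overlapped WT for U or G, with exact permutation p = 0.1 each. In ITS 2, U held 33.3% ± 0.148 of reads in WT, 43.3% ± 0.321 in rpa34Δ and 49.9% ± 1.35 in rpa49Δ, A 30.3% ± 0.415, 22.5% ± 0.536 and 11.2% ± 0.586, and C 17.2% ± 0.778, 20.5% ± 0.682 and 31.6% ± 1.86. Without the highest position, the rpa49Δ share exceeded that of WT by 19.6 points at C and by 10.3 at U. The start of ITS 2 is rich in U and C, so the shares were also taken without it. Past the first 10 nt, U held 28.8% ± 0.230, 37.0% ± 0.260 and 41.7% ± 0.714, A 36.1% ± 0.453, 31.3% ± 0.511 and 23.5% ± 0.910, and G 23.8% ± 0.804, 20.4% ± 0.197 and 18.2% ± 0.278. C stood at 11.3% ± 0.329 in WT and 11.4% ± 0.293 in rpa34Δ, and at 16.7% ± 0.652 in rpa49Δ. There U is 37.4% and A 23.9% of positions, so the U share of reads lay below its share of the sequence in WT and rpa34Δ and above it in rpa49Δ.

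Reads were also more concentrated in a few positions in the deletions than in WT. The 10 highest positions of each library held 26.7% ± 1.57 of 5.8S reads in WT, 29.6% ± 0.664 in rpa34Δ and 32.4% ± 1.46 in rpa49Δ. In ITS 2 the same measure was 31.7% ± 1.08, 41.0% ± 1.56 and 63.2% ± 1.12, without overlap of the groups (exact permutation p = 0.1 each). In each group 9 positions of ITS 2 were among the 10 highest of all 3 libraries, and 5 of these in WT, 6 in rpa34Δ and 7 in rpa49Δ lay in its first 10 nt, so this measure overlaps with the share of that stretch. The shape of the 5.8S profile was kept more closely than that of ITS 2. Over the 158 positions of 5.8S, Pearson's r of log2(RPM + 10) between an rpa49Δ and a WT library was 0.947 to 0.963. Over the 232 positions of ITS 2 it was 0.593 to 0.632. Over the 222 positions of ITS 2 past its first 10 nt it was 0.405 to 0.472, against 0.845 to 0.883 between rpa49Δ libraries and 0.846 to 0.867 between rpa34Δ and WT libraries. Low read numbers in rpa49Δ move with these values, as the range between its own libraries shows, and their part was not tested.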

How the data were processed

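The authors deposited 2 tables, which share their WT columns, with each position of the gene in each library in RPM, scaled on the gene up to its terminator. The submitters' processing notes name build R64 and the tools STAR 2.7.1a, cutadapt 3.4, bedtools 2.28.0, bcl2fastq 2.20.00, R 4.0.2 and SAMtools 1.6, in no stated order. The sources used here do not say if molecular identifiers were collapsed or where reads matching both gene copies were placed. The deposited ratios and p-values were not used. For this report every library was rescaled to 1000000 over the whole gene.

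Whole reads could be recovered from the RPM steps: 99.956 to 100% of the values of a library were whole within 0.01 read. Positions and 10-nt windows were tested over the whole gene with limma 3.58.1 (R 4.3.3) on log2(RPM + 10), using the libraries of the compared groups, with Benjamini-Hochberg adjustment at 0.05. This scale understates changes at low levels. Exact permutation tests, two-sided, served for shares. On recovered reads, the quasi-likelihood test of edgeR 4.0.16, an alternative, called 2740 of 6425 positions between rpa34Δ and WT, 3623 of 6320 between rpa49Δ and WT and 1880 of 6083 between the deletions. The fits were tested on simulated data. Other steps used pandas 2.3.3, numpy 2.4.6, matplotlib 3.10.9 and scipy 1.17.1 in Python 3.11.15.

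Named positions were, per region, the 5 highest in WT and the 5 largest rises and falls per comparison past the threshold. Added to these were 10 positions each side of the 5.8S/ITS 2 border, 5 each side of the outer borders, and the 3 windows with the largest rise and fall. Members and lists were chosen with earlier results of these data known. Replicate numbers are not stated to pair the libraries. Correlations of deviations between libraries of the same number ran from -0.285 to 0.253, and between unlike numbers from -0.306 to 0.422. With 3 libraries per group these cannot decide whether the numbers pair them. Libraries of a group differed by more than counting noise (chi-square per degree of freedom 2.51 to 10.6). Outer borders carried low values: the last 5 nt of ITS 2 had WT means of 11.4 to 55.8 RPM.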

Additional observations from a re-analysis of the deposited data

How the results depend on the processing

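Of 138 values of shares and counts recomputed under another setting, 97 kept their size, 35 moved and 6 changed sign. Those 97 include 71 counts of calls, compared by their total alone, and in 7 of them the larger direction turned over, each under another scaling. The share of ITS 2 as a log2 ratio (-0.30 and -1.08 for rpa34Δ and rpa49Δ against WT, and -0.77 between the deletions) was -0.56, -2.10 and -1.54 without the first and last 10 nt, and -0.56, -2.08 and -1.52 without the first 10 nt. It turned to 0.44, 0.54 and 0.10 in the first 10 nt alone and to 0.41, 0.80 and 0.39 as a share of spacer reads, and was -1.26 for rpa49Δ against WT without its highest position. The 5.8S ratio as a share of mature rRNA was 0.16 and 0.18. With a minimum of 50 RPM, 38, 27 and 16 ITS 2 positions passed, because fewer were tested. Scaling on spacer reads gave 107 and 78 ITS 2 positions for rpa49Δ against WT and against rpa34Δ, and scaling on mature rRNA reads gave 7 windows of 5.8S for rpa34Δ. Windows of 20 nt, fewer by construction, gave 5 (5.8S) and 10 (ITS 2) for rpa34Δ, 4 and 12 for rpa49Δ, and 11 in ITS 2 between the deletions. The median position of a window gave 5 windows of 5.8S between the deletions. The 10 positions with the highest mean gave ITS 2 differences of 30.1 and 19.8 points. Without the highest position the base shares of ITS 2 differed by -7.06 (A), 4.49 (C) and 7.59 (U) points for rpa34Δ, by -18.5, 19.6 and 10.3 for rpa49Δ, and by 15.1 (C) and 2.66 (U) between the deletions. Those of 5.8S differed by -4.27 (A) for rpa49Δ and by -2.17 (A) and 0.46 (G) between the deletions. Other causes were not tested.

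Leaving out 1 library, positions past the threshold in 5.8S between the deletions ran from 9 to 30, windows of 5.8S from 6 to 11 for rpa34Δ and from 3 to 5 between the deletions. The share of 5.8S reads at C ran from -0.25 to 1.21 points for rpa49Δ against WT and from -0.57 to 0.89 between the deletions, negative without rpa49Δ replicate 3. The replicate block, with numbers that are not stated to pair the libraries, gave 7 windows of 5.8S for rpa34Δ against WT. It left the 11 other counts of positions and windows within 1.5 times.

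Of named positions and windows, 1150 values outside left-out libraries kept their call, 27 gained it, 26 lost it and 25 changed sign. Scaled on spacer reads, position 3158 turned to 0.064, 3028 to 0.33, 3247 to 0.14, 3249 to 0.38 and 3251 to 0.36 in rpa34Δ relative to WT. In rpa49Δ relative to WT 3028 turned to 0.48, 3247 to 0.20, 3248 to 0.79 and 3250 to 1.03. Between the deletions 3027 turned to 0.96, 3028 to 0.15, 3247 to 0.057, 3248 to 0.11 and 3250 to 0.49. Scaled within the region, an alternative added after seeing the data, as were ITS 2 without its first 10 nt and its first 10 nt alone, 3247 turned to 0.015 in rpa34Δ relative to WT. In rpa49Δ relative to WT 3028 turned to 0.63, 3247 to 0.36, 3248 to 0.94 and 3250 to 1.16. Between the deletions 3027 turned to 1.29, 3028 to 0.40, 3247 to 0.33, 3248 to 0.37 and 3250 to 0.71. The window 3070 to 3079 turned to -0.59 for rpa34Δ against WT with its median position.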
